A study of Arabidopsis thaliana with 8 samples.

Results

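The psbA locus of the Arabidopsis thaliana plastid genome was described through its DNA contacts, as counted by Hi-C, an assay in which neighbouring DNA ends are ligated to each other and the ligated pairs are sequenced and counted. The locus was taken as the first 2 bins of the deposited contact table, positions 1 to 2000 of the TAIR10 plastid chromosome, and its members were the 309 bin pairs that include either bin, out of 12090 pairs of 155 bins of 1 kb. By the gene table, the first bin (1 to 1000) overlaps trnH and psbA, and the second (1001 to 2000) overlaps psbA and trnK. All 8 libraries came from rosette leaves of wild-type Col0 plants 14 days old, from preparations labelled chloroplast and membrane. The protocol gives treatment of isolated chloroplasts with EGS, an amine-reactive crosslinker, at 5 mM (45 min), and with formaldehyde at 4% (4 h). It has the same words for every sample, so that the crosslinked group (4 libraries, treatment "EGS, Fa crosslinking") and the non-crosslinked group (4 libraries, titled nox) are told apart by their titles and treatment labels. The series gives the non-crosslinked libraries as negative controls, and its title concerns how the nucleoid is organised where transcribed genes meet membranes. Nothing in the labels says whether replicates came from separate plants, so p-values measure the spread between these libraries, which may be technical.

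psbA encodes D1, a core subunit of the reaction centre of photosystem II, the thylakoid complex that oxidises water. D1 is damaged by light and is replaced throughout the life of the leaf, and psbA is among the most strongly transcribed protein-coding genes of the chloroplast. Its mRNA is translated on thylakoid membranes, into which D1 is inserted while it is made. The gene lies at the edge of the large single copy region and is read towards trnH and the inverted repeat, so that the second bin holds its 5′ part and the first its 3′ part. On the circular map the locus therefore has 2 neighbours, the trnK-matK stretch on the side of the large single copy region and the end of the inverted repeat, with rpl2, on the other.

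Reads from the inverted repeat have no unique position, which bears on each psbA contact with that side. The copies occupied bins 84001 to 111000 and 128001 to 155000, 27 bins each, leaving 84 bins in the large and 17 in the small single copy region. A folded distance, the shortest path along the circle between any copies of the partners, was used to call contacts over 5 kb long-range. Of the 309 psbA pairs, 279 were long-range.

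Libraries held 351828 to 708524 contacts, of which psbA had 8907, 8169, 5767 and 5162 in the crosslinked libraries (replicates 1 to 4), against 10006, 8135, 4481 and 5540 in the non-crosslinked libraries. Crosslinked replicates 1 to 4 held 2028, 1148, 723 and 407 long-range psbA contacts. Non-crosslinked replicates 1 and 2 held 1386 and 935, but replicates 3 and 4 held only 80 and 107, with 215 and 193 of the 279 long-range pairs at 0. These last libraries stood apart from the rest in their small number of long-range contacts over the whole map (2655 and 4237, against 11014 to 53468 in the other 6). Values without a single library, and within replicates 1 and 2 or 3 and 4, are given below where they bear on a result.

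psbA took a larger share of long-range contacts in crosslinked than in non-crosslinked libraries. Of all long-range contacts of a library, 3.79%, 3.92%, 4.09% and 3.70% involved psbA in crosslinked replicates 1 to 4. In non-crosslinked replicates 1 to 4 the share was 2.73%, 2.88%, 3.01% and 2.53%. Every crosslinked library lay above every non-crosslinked one. The means were 3.87% ± 0.171 and 2.79% ± 0.209 (SD, n = 4 each), and the difference of 1.09 percentage points had an exact two-sided permutation p of 0.0286, the smallest that the 70 assignments of 8 libraries allow (0.0531 after Benjamini-Hochberg adjustment over 13 per-library measures). psbA pairs made up 2.58% of all long-range bin pairs, so the non-crosslinked libraries sat near the share that equal contacts per pair would give. The difference was 1.05 points within replicates 1 and 2 and 1.12 points within replicates 3 and 4, and it stayed between 0.999 and 1.16 points without any single library. A share is relative: a larger share for psbA comes with a smaller one elsewhere in the same library.

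**Figure D1:**
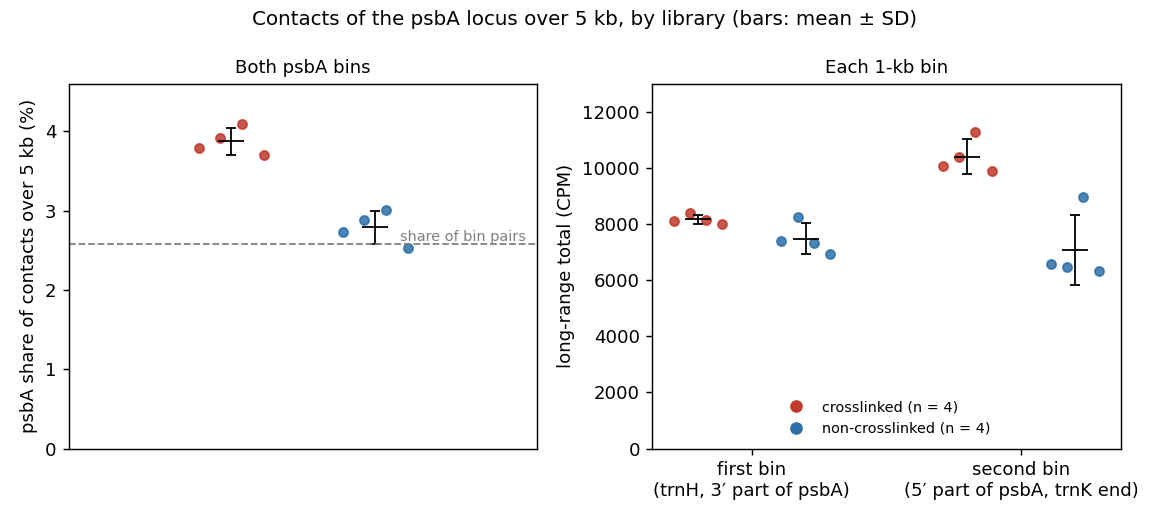
Left, share of a library's contacts over 5 kb that involve psbA (percent), with the share of bin pairs as a dashed line at 2.58%. Right, long-range total of each psbA bin (CPM). Points are libraries (4 crosslinked, 4 non-crosslinked) and bars are mean ± SD; the groups do not overlap for the share or for the second bin, and overlap for the first bin.

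Other places also moved. When the 42 places of 2 kb that make up the large single copy region were ordered by their mean share of long-range contacts, psbA stood in position 2 in crosslinked libraries and in position 25 in non-crosslinked ones. Only the place that holds trnL (46001 to 48000) had a higher mean share in crosslinked libraries. The groups failed to overlap, with the crosslinked libraries higher, for 11 of the 42 places (26.2%), psbA included. For another 15 of the 42 they failed to overlap with the crosslinked libraries lower, so groups that do not overlap are common here. psbA had the 6th largest rise in mean share among the 42.

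The second bin, with the 5′ part of psbA, carried most of this. It held 1122, 635, 420 and 225 long-range contacts in crosslinked replicates 1 to 4. The non-crosslinked libraries had 652, 411, 44 and 51, in the same order. In CPM (counts per 1000000 of the library's total in the table tested, scaled by TMM, a method that evens out library composition) this was 10402 ± 631 against 7076 ± 1256 (SD, n = 4 each). The lowest crosslinked value was 9873 and the highest non-crosslinked value, that of replicate 3, was 8952, so the groups did not overlap. The log2 difference was 0.62 ± 0.12 (SE), with an adjusted p of 0.000152 by edgeR's quasi-likelihood test over all 155 bins. Of these 155 long-range totals, 67.1% passed the threshold of 0.05, with 32.3% higher and 34.8% lower in crosslinked libraries, so that a call by itself is common here. Among the 84 bins of the large single copy region the second bin ranked 4 in crosslinked and 45 in non-crosslinked libraries, and 7 by its log2 difference. Within replicates 3 and 4 alone its difference was 0.44, with an adjusted p of 0.134.

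The first bin, with trnH and the 3′ part of psbA, did not pass. It held 906, 513, 303 and 182 long-range contacts in the crosslinked libraries (replicates 1 to 4), against 734, 524, 36 and 56 in the non-crosslinked libraries. Its level was 8161 ± 167 against 7475 ± 550 CPM (SD, n = 4 each), a log2 difference of 0.10 ± 0.095 (SE, edgeR adjusted p = 0.355), and non-crosslinked replicate 2 lay within the crosslinked range. The median bin of the large single copy region stood at 6576 and 7250 CPM in the crosslinked and non-crosslinked groups. Set against that median within each library, the first bin's log2 difference was 0.25 and the second bin's 0.69. In both the groups did not overlap (exact permutation p = 0.0286, adjusted 0.0531). How many other bins show this on the same measure was not counted.

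Within a library, the second bin's long-range total exceeded the first bin's in every crosslinked library and in 1 of 4 non-crosslinked ones. On the log2 scale the ratio of the second to the first was 0.308, 0.308, 0.471 and 0.306 in crosslinked replicates 1 to 4. All were towards the bin with the 5′ part of the gene. In non-crosslinked replicates 1 to 4 it was -0.171, -0.350, 0.290 and -0.135. Replicate 3, with 44 and 36 contacts behind its ratio, came close to the crosslinked libraries without reaching them. The mean difference was 0.44 (exact permutation p = 0.0286, adjusted 0.0531), and the p reached 0.0571 with a library left out. It was 0.57 within replicates 1 and 2 and 0.31 within replicates 3 and 4. How often other neighbouring bins differ in this way was not counted.

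The bins next to psbA showed no common direction. Long-range totals of the trnK-matK bins 2001 to 3000 and 4001 to 5000, the latter trnK alone, differed by log2 0.18 (adjusted p = 0.0871) and 0.17 (adjusted p = 0.129), and that of 3001 to 4000 fell by 0.27 (adjusted p = 0.0207) in edgeR's test. The rps16 bin at 5001 to 6000 fell by 0.36 (adjusted p = 0.0134). On the repeat side, in the same test, the rpl2 bin at 153001 to 154000 rose by 0.29 (adjusted p = 0.0264), while the bin that touches psbA at 154001 to 155000 fell by 0.81 (adjusted p = 8.23e-05). The latter had the lowest long-range total of all 155 bins in crosslinked libraries, at 2029 CPM. Reads of both repeat bins have no unique position, so their totals cannot be assigned to the copy beside psbA. The rise of the second psbA bin was thus larger than that of any of these 6 neighbours.

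Most psbA contacts were short, as elsewhere on the map. Contacts within a bin made up 45.9%, 51.0%, 54.0% and 59.6% of psbA contacts in the crosslinked libraries (replicates 1 to 4), against 54.3%, 60.1%, 66.9% and 59.0% in the non-crosslinked libraries. These ranges overlapped, with a difference of -7.46 percentage points (exact permutation p = 0.114). Of psbA contacts between different bins, 29.4% ± 9.38 in crosslinked and 17.3% ± 14.2 in non-crosslinked libraries (SD, n = 4 each) were long-range, a difference of 12.1 points that also lay within the spread (exact permutation p = 0.286).

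With counts summed over all bins other than itself, near and far, the first bin had an edgeR log2 difference of 0.23 ± 0.083 (SE, adjusted p = 0.0150) and the second 0.11 (adjusted p = 0.267). Of the 155 bin totals 48.4% passed, 22.6% of them higher and 25.8% lower as shares of all 155. The first bin's ranges overlapped. Without adjacent bins and the images of the repeat, the order of the bins turned: 0.15 (adjusted p = 0.190) for the first and 0.64 (adjusted p = 0.000113) for the second.

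Only 8 of the 309 psbA pairs had enough counts to be tested at 1 kb, and 301 fell below the count filter, so the tested pairs speak for the near contacts of the locus. By edgeR's test 3 of the 8 were higher in crosslinked libraries and 5 did not pass. None was lower, also at an unadjusted p under 0.05 and with DESeq2, but the pair of the second bin with the trnK-matK bin beside it was called lower when non-crosslinked replicate 2 was left out and with replicates 3 and 4 only. Of all 381 pairs tested on the map, 64.0% passed, 32.3% higher and 31.8% lower.

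The contact between the 2 psbA bins, which also overlap trnH and trnK, had 475, 449, 349 and 299 counts in the crosslinked libraries (replicates 1 to 4). The non-crosslinked libraries had 321, 302, 124 and 114, in the same order. After scaling the groups were far from overlapping, at 847 ± 31.9 and 409 ± 102 CPM of all contacts (SD, n = 4 each). The log2 difference was 1.02 ± 0.15 (SE, edgeR adjusted p = 0.000108). Adjacent pairs of the large single copy region were often higher, with 44 of 83 called higher and 7 lower at a median log2 of 0.28, and this pair ranked 19 of the 83. Fitted with no count filter, over 12089 pairs, its adjusted p was 0.259.

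A different adjacent pair, the second psbA bin with the trnK-matK bin next to it, did not pass and ranked 76 of the 83. It had 972, 1099, 766 and 744 counts in the crosslinked libraries (replicates 1 to 4), against 1496, 1090, 803 and 1158 in the non-crosslinked libraries, a log2 difference of -0.26 (edgeR adjusted p = 0.0771). Without non-crosslinked replicate 2 it fell by 0.37 (edgeR adjusted p = 0.00284), and with replicates 3 and 4 only by 0.40 (edgeR adjusted p = 0.000666).

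A pair of contacts a few bins away was called higher. The second psbA bin with the trnK-matK bin at 3001 to 4000 had 34, 17, 11 and 12 counts in crosslinked and 10, 3, 1 and 1 in non-crosslinked replicates, a log2 difference of 1.92 ± 0.44 (SE, edgeR adjusted p = 0.0026). matK encodes a maturase that acts on plastid introns. The first psbA bin with the bin at 5001 to 6000, in rps16, a ribosomal protein gene, had 29, 21, 9 and 10 against 8, 6, 1 and 1 counts, a log2 difference of 1.77 ± 0.41 (SE, edgeR adjusted p = 0.00282). In both pairs every crosslinked library lay above every non-crosslinked one after scaling. Both had reached the filter, at 21.5 CPM, in all 4 crosslinked and in 0 non-crosslinked libraries, so a tested pair of this kind had to be higher in the crosslinked group. With no filter their log2 differences were 1.69 (edgeR adjusted p = 0.0193) and 1.52 (edgeR adjusted p = 0.0449), where 1.56% of all pairs were called and 0.918% were higher.

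Contacts of the first bin with the end of the repeat did not pass. Its pair with the neighbouring bin at 154001 to 155000 had a log2 difference of 0.03 (edgeR adjusted p = 0.863), and its pair with that bin's image at 84001 to 85000, in rps19 and rpl2, 0.10 (adjusted p = 0.594). The counts divided about evenly between the copy that touches psbA and the copy that lies across the map: the touching copy held 47.1% to 52.4% of them over the 8 libraries (95% Wilson intervals from 44.2% to 56.7%). Contacts with this side cannot be assigned to either copy from the table.

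Contacts by distance were compared with the mean of all bin pairs of the large single copy region, per bin pair and per 1000000 contacts of the library. At 2 to 5 kb psbA had 32.4, 20.4, 19.7 and 19.5 in crosslinked replicates 1 to 4, where the region's mean was 19.6, 14.3, 12.4 and 7.88. In non-crosslinked replicates 1 to 4 psbA had 10.1, 7.68, 0.700 and 2.14, where the region's mean was 8.45, 6.17, 0.774 and 1.30. psbA was above the mean of the region in all 4 crosslinked libraries and in 3 of the non-crosslinked ones.

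At 21 to 50 kb psbA had 15.3, 9.85, 8.60 and 4.74 contacts per pair per 1000000 in crosslinked replicates 1 to 4, against means of 9.95, 6.23, 5.06 and 3.39 for the region. In non-crosslinked replicates 1 to 4 it had 7.74, 5.58, 0.980 and 0.775, against 8.23, 5.94, 0.920 and 1.23. The locus again stood above the region in every crosslinked library, while in non-crosslinked libraries it was below it in 3 and above it in replicate 3, whose value rests on 21 contacts. Between these distances, at 11 to 20 kb, psbA had 13.0, 6.53, 5.57 and 4.41 in crosslinked replicates, against 11.2, 6.92, 5.74 and 3.90 for the region, so that it lay below the region in replicates 2 and 3.

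**Figure D2:**
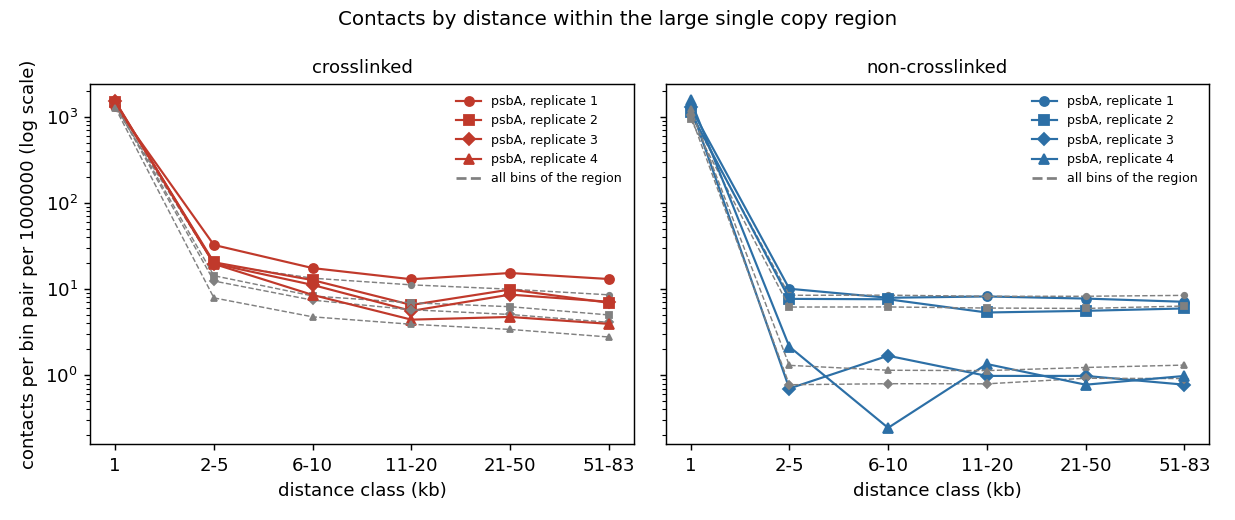
Contacts per bin pair per 1000000 contacts of the library (log scale) against circular distance class (kb), for psbA (coloured lines, a line per library) and for all bin pairs of the large single copy region (grey dashed lines, same symbol as the library). In crosslinked libraries psbA lies above the region's mean at 2 to 5 kb and at 21 to 50 kb, but not in every library at 11 to 20 kb; non-crosslinked replicates 3 and 4 lie far below the other 2 of their group beyond 1 kb.

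The fall with distance was not particular to psbA. Its ratio of contacts per pair at 2 to 5 kb over those at 20 to 50 kb was 2.12, 2.08, 2.28 and 4.06 in crosslinked replicates 1 to 4. In non-crosslinked replicates 1 to 4 it was 1.30, 1.39, 0.738 and 2.86, with 2 and 7 near contacts behind those of replicates 3 and 4. The means of 2.63 ± 0.954 and 1.57 ± 0.904 (SD, n = 4 each) differed by 1.06 with overlapping groups (exact permutation p = 0.143), and by 1.49 (p = 0.0286) without non-crosslinked replicate 4. Of the 42 places of the large single copy region, 71.4% had groups that did not overlap, with the crosslinked libraries higher, and psbA, which was not among them, ranked 24 by the difference.

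Near contacts were also split by the side of the locus. With adjacent bin pairs left out, the contacts of psbA with the 5 bins towards matK (2001 to 7000) and with the last 5 bins of the repeat (150001 to 155000, and their images at 84001 to 89000) were summed. The repeat side held 161 of 315, 89 of 181, 66 of 130 and 31 of 89 of them in crosslinked replicates 1 to 4, or 51.1%, 49.2%, 50.8% and 34.8%. In non-crosslinked replicates 1 to 4 it held 33 of 101, 20 of 64, 0 of 2 and 1 of 8, or 32.7%, 31.3%, 0% and 12.5%. The groups did not overlap, at 46.5% ± 7.81 and 19.1% ± 15.7 (SD, n = 4 each), although crosslinked replicate 4 lay just above non-crosslinked replicate 1. How often other places show such a split was not counted, so it is not shown to be particular to psbA. The difference of 27.4 points had an exact permutation p of 0.0286 (adjusted 0.0531), and the p rose to as much as 0.0857 with a library left out. Within replicates 1 and 2, where the non-crosslinked shares rest on 101 and 64 contacts, the difference was 18.2 points. Non-crosslinked replicate 3 with its 2 contacts has a 95% Wilson interval from 0% to 65.8%. With adjacent pairs kept in, which give most of the counts, the log2 ratio of the matK side to the repeat side differed by -0.34 (exact permutation p = 0.114).

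The partners of long-range psbA contacts were followed in 14 windows of up to 10 kb along the map, with the repeat copies summed. All 14 psbA windows could be tested. By edgeR's test 8 were higher in crosslinked libraries and 6 did not pass. DESeq2 called 7 of the 14 higher. No window was lower by edgeR or DESeq2, and 1 was lower at an unadjusted p under 0.05. Of all 876 windows of all 2-kb places 54.5% passed, 27.2% higher and 27.3% lower. The median log2 difference was 0.57 over the psbA windows and -0.0056 over all windows. As many higher windows as psbA or more were found for 10 of the 65 places, 5 of them in the large single copy region, where the median over the 42 places was 2.5 higher and 3 lower.

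**Figure D3:**
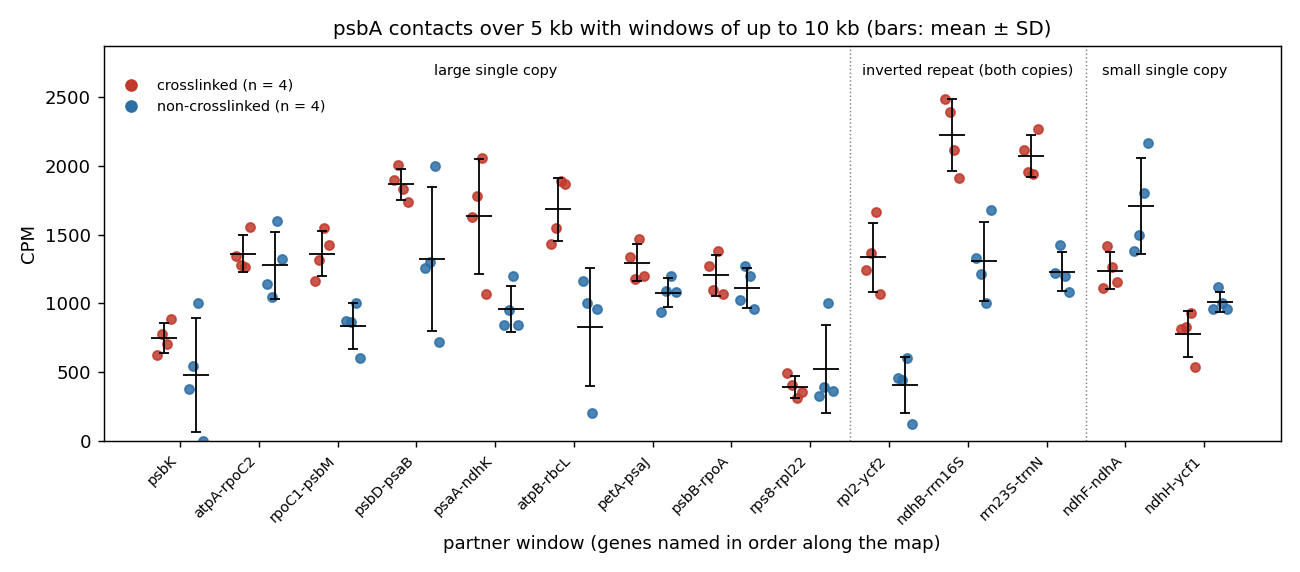
Long-range psbA contacts with each of 14 windows (CPM of window contacts, each contact counted from both ends), labelled by genes in map order. Points are libraries and bars mean ± SD (n = 4 each). The window labelled rpl2-ycf2 holds only contacts with ycf2 (88001 to 94000) for psbA and shows the largest fold difference. Both small single copy windows have lower means in the crosslinked group.

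The window at 84001 to 94000 showed the largest difference. Its part up to 88000, with rps19, rpl2, rpl23 and part of ycf2, lies within 5 kb of psbA by folded distance. Only contacts with ycf2 (88001 to 94000) were therefore counted for psbA. The window held 133, 81, 59 and 24 contacts in the crosslinked libraries (replicates 1 to 4), against 48, 29, 3 and 1 in the non-crosslinked libraries. This was 1335 ± 250.4 against 405 ± 203 CPM (SD, n = 4 each). No crosslinked value was below 1068 and no non-crosslinked value above 600.2. The log2 difference was 1.51 ± 0.17 (SE, edgeR adjusted p = 1.94e-08). This window was higher for most of the genome: 50 of the 63 other places tested with it were called higher, at a median log2 of 0.70. For places further away these values also cover the part up to 88000, so the stretches compared are unlike. With the 2-kb stretches of ycf2 from 88001 to 94000, in map order, other places had medians of 0.94, 0.34 and 0.97. psbA had 1.34, 1.41 and 1.39 with them. Of these, 1.34 counts contacts with 88001 to 89000 through the second psbA bin only, because the first bin is not over 5 kb away. That value is therefore not fully like the 0.94 of other places. ycf2 encodes a large protein linked to import of proteins into the chloroplast.

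The rest of the repeat followed. Contacts with 94001 to 104000, from ndhB (a subunit of the NDH complex of the thylakoid) to rrn16S, were 2227 ± 262 against 1307 ± 286 CPM (SD, n = 4 each; log2 0.80, edgeR adjusted p = 5.87e-05), where other places had a median of 0.41. Contacts with 104001 to 111000, which holds rrn23S and the tRNA genes trnR and trnN, were 2070 ± 154 against 1231 ± 142 (log2 0.66, edgeR adjusted p = 0.000375), where other places had a median of 0.13. In both windows the groups did not overlap.

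In the large single copy region 5 of 9 windows were higher. The window from psaA, a core subunit of photosystem I, to ndhK (40001 to 50000) had 1635 ± 417 against 960.2 ± 169 CPM (SD, n = 4 each; log2 0.87, edgeR adjusted p = 6.35e-05). That of atpB, a subunit of the ATP synthase, and rbcL, the large subunit of Rubisco (50001 to 60000), had 1684 ± 230 against 831 ± 429 (log2 0.61, edgeR adjusted p = 0.00283). That of rpoC1 and rpoB, subunits of the plastid RNA polymerase (20001 to 30000), had 1362 ± 166 against 834 ± 168 (log2 0.58, edgeR adjusted p = 0.00162). The groups overlapped in the psaA window, where crosslinked replicate 4 was low at 1068, and did not overlap in the other 2.

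Contacts with 30001 to 40000, which holds psbD and psbC of photosystem II and psaB of photosystem I, were 1868 ± 113 against 1320 ± 525 CPM (SD, n = 4 each; log2 0.56, edgeR adjusted p = 0.00266). Non-crosslinked replicate 3, from 10 contacts, reached into the crosslinked range. The stretch closest to psbA that still counts as long-range, with psbK and psbI (up to 10000), had a log2 difference of 0.66 (edgeR adjusted p = 0.0152) and overlapping groups, from 5 and 0 contacts in non-crosslinked replicates 3 and 4. This window did not pass with DESeq2 (adjusted p = 0.0548) or without non-crosslinked replicate 1 (edgeR adjusted p = 0.199).

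The 6 windows that did not pass included the atpA, atpF and atpH genes (10001 to 20000, log2 0.23, edgeR adjusted p = 0.194) and the psbB operon (70001 to 80000, log2 0.11, adjusted p = 0.543). Those at 60001 to 70000, with petA and psbE, and at 80001 to 84000, with ribosomal protein genes, had log2 differences of 0.34 (adjusted p = 0.0508) and 0.16 (adjusted p = 0.562). Both windows of the small single copy region were on the other side of 0. The ndhF-ndhA window (111001 to 121000) stood at -0.28 (adjusted p = 0.124) and the ndhH-ycf1 window (121001 to 128000) at -0.33 (adjusted p = 0.0688), where other places had medians of -0.52 and -0.57. The groups overlapped in the ndhF-ndhA window. In the ndhH-ycf1 window they did not, with a highest crosslinked value of 930.2 and a lowest non-crosslinked value of 959.3 CPM. In all 14 windows psbA's value was above the median of the other places. In the ycf2 window and the window nearest psbA, its value covers a shorter stretch than that of places further away.

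**Figure D4:**
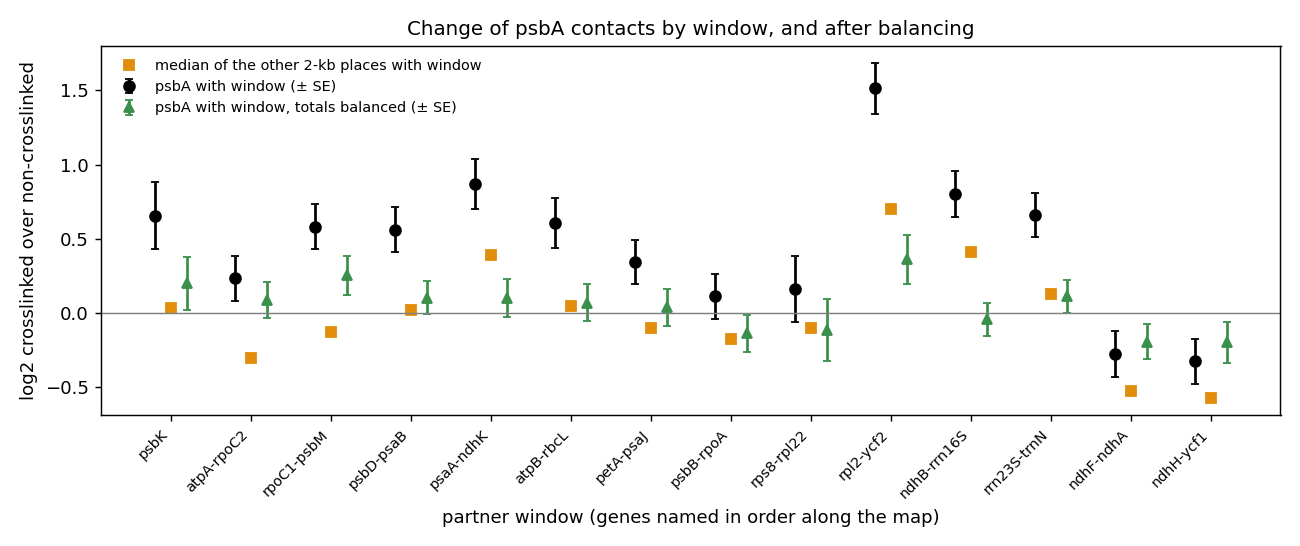
Log2 of crosslinked over non-crosslinked contacts of psbA with each window (black, ± SE), the median of the other 2-kb places with the same window (orange squares), and the psbA value once the totals of psbA and of the window in each library are divided out (green, ± SE). The black points lie above the orange ones in every window. The green points lie near 0, with the window labelled rpl2-ycf2 highest at 0.36. For psbA that window holds only contacts with ycf2, while for places further away it also holds rps19 to rpl23.

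These differences went with the totals of psbA and of its partners. When the expected contacts from both totals in each library were used as an offset (balanced values), 0 of the 14 psbA windows passed by edgeR's test, 1 at an unadjusted p under 0.05, where 5.59% of all windows passed. The balanced log2 differences ran from -0.20 to 0.36. The ycf2 window was highest (0.36, adjusted p = 0.222) and the rpoC1-rpoB window next (0.25, adjusted p = 0.308). The total of the ycf2 window spans 84001 to 94000, more than the part counted for psbA. The ndhB-rrn16S window turned to -0.04. No window of psbA was thus shown to differ beyond the totals.

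At 2 kb, 50 of 60 long-range partners of psbA could be tested, and 10 fell below the count filter. By edgeR's test 14 were higher, 1 was lower and 35 did not pass, where 34.1% of 1369 tested pairs passed over the whole table, 16.9% higher and 17.2% lower. Partners in the repeat made up most: 9 of 12 tested were higher, while of all pairs that join the repeat to the large single copy region 24.6% were higher. In the large single copy region 5 of 30 were higher (11.8% of all pairs within that region). In the small single copy region 1 of 8 was lower, where 57.0% of all pairs between the single copy regions were lower. These numbers speak for the tested partners only. The filter, at 426 CPM, was reached by all 4 non-crosslinked libraries for 2 of the 14 higher partners, and by 0 of them for 4, which were tested only because they were high in the crosslinked group. With no filter all 60 partners were fitted, and 18 were higher and 1 lower, where 30.3% of all 1944 pairs were called and 15.7% were higher.

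The largest increases with no overlap between groups were in ycf2, with partners that reached the filter in the crosslinked group alone. Its stretch at 92001 to 94000 had 42, 27, 17 and 8 contacts in crosslinked and 12, 12, 1 and 0 in non-crosslinked replicates (log2 1.39, edgeR adjusted p = 9.92e-05). At 88001 to 90000, also in ycf2, the counts were 35, 21, 18 and 11 against 16, 7, 0 and 1 (log2 1.34, edgeR adjusted p = 0.000276). Other places had medians of 0.97 and 0.94 with these stretches, so psbA shared the direction with the genome at large. With no filter the log2 differences were 1.43 (edgeR adjusted p = 3.56e-05) and 1.37 (edgeR adjusted p = 0.000116), and within replicates 1 and 2 only 1.41 and 1.19.

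Outside ycf2, the stretch with atpB and atpE (52001 to 54000) had 36, 28, 13 and 9 against 13, 13, 1 and 1 contacts (log2 1.15, edgeR adjusted p = 0.00112). That of ndhB and rps7 (96001 to 98000) had 50, 29, 14 and 11 against 24, 11, 2 and 2 (log2 1.00, edgeR adjusted p = 0.00255). The stretch from petG, a subunit of the cytochrome b6f complex, to rps18 (66001 to 68000) had 43, 14, 9 and 6 against 14, 11, 0 and 1 (log2 0.98, edgeR adjusted p = 0.00544). Those of atpB and atpE and of petG to rps18 also reached the filter in crosslinked libraries alone, so to be tested they had to be high there. With no filter their log2 differences were 1.18 (edgeR adjusted p = 0.000796) and 1.01 (edgeR adjusted p = 0.00531). The atpB and atpE stretch did not pass without non-crosslinked replicate 1 (edgeR adjusted p = 0.0895). That of ndhB and rps7 did not pass without non-crosslinked replicate 2 (edgeR adjusted p = 0.0660). That of petG to rps18 did not pass with DESeq2 (adjusted p = 0.0808). Within replicates 1 and 2 only, the log2 differences of these 3 stretches were 1.22, 1.13 and 1.08. The only decrease, which reached the filter in non-crosslinked libraries alone, was with ycf1 (125001 to 127000), which encodes a large envelope protein: 18, 8, 3 and 2 contacts in crosslinked and 34, 37, 3 and 3 in non-crosslinked replicates, a log2 difference of -1.40 (edgeR adjusted p = 8.10e-05). Of the 48 other places tested with this ycf1 stretch, 42 were called lower, at a median of -1.45. With totals balanced, 0 of the 50 psbA partners passed by edgeR's test, 5 at an unadjusted p under 0.05, and 0.219% of all pairs did.

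As shares of psbA's own long-range contacts, partners in the repeat were more common in crosslinked libraries and partners in the small single copy region less common. Partners in the repeat took 30.8%, 29.5%, 28.1% and 29.0% in the crosslinked libraries (replicates 1 to 4), against 22.7%, 21.7%, 17.5% and 22.4% in the non-crosslinked libraries. Partners in the small single copy region took 10.2%, 11.6%, 10.8% and 9.34% against 17.6%, 18.5%, 17.5% and 24.3%. Neither pair of groups overlapped. How many other places show this for the same shares was not counted. Their contacts moved the same way by window. The median log2 difference of other places was 0.70, 0.41 and 0.13 with the repeat windows. It was -0.52 and -0.57 with the windows of the small single copy region. The mean differences were 8.28 points for the repeat and -9.01 points for the small single copy region, each with an exact permutation p of 0.0286 (adjusted 0.114 over the 8 measures set at first and 0.0531 over all 13). Within replicates 1 and 2 they were 7.99 and -7.18 points, and within replicates 3 and 4 they were 8.57 and -10.8 points. The share of the large single copy region, 60.2% ± 1.43 and 59.4% ± 4.80 (SD, n = 4 each), differed by less than the spread (exact permutation p = 0.771).

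**Figure D5:**
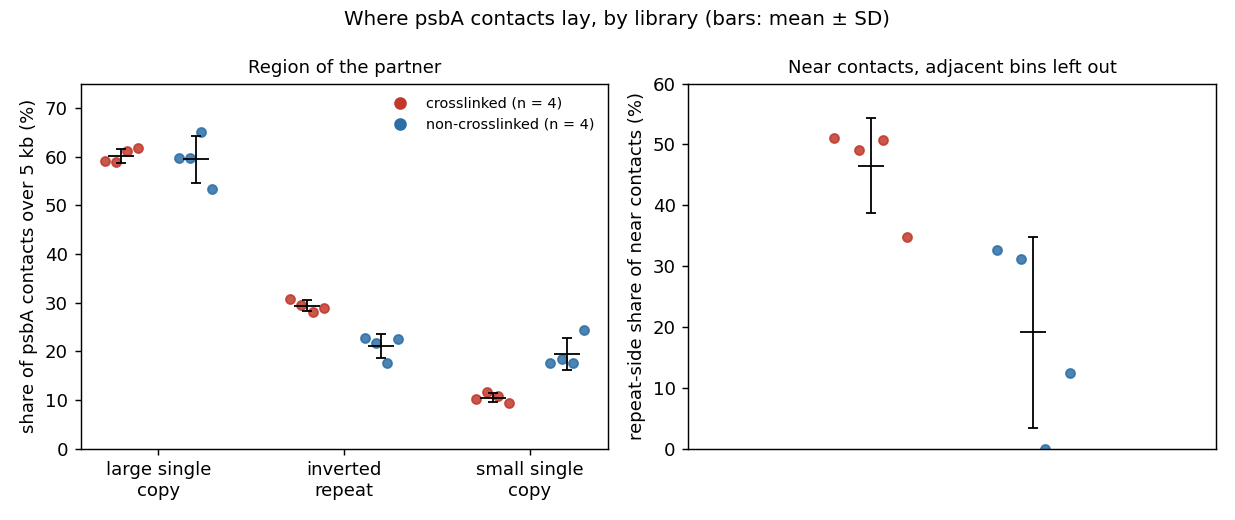
Left, share of psbA contacts over 5 kb whose partner lies in each region (percent). Right, share of near psbA contacts, adjacent bins left out, that lie on the repeat side (percent). Points are libraries (4 per group) and bars mean ± SD. Groups do not overlap for the repeat, for the small single copy region or for the near contacts. For the near contacts, crosslinked replicate 4 (34.8%) lies just above non-crosslinked replicate 1 (32.7%). How often other places show this was not counted.

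The series title speaks of transcribed genes, and psbA's long-range contacts with 8 listed photosynthesis and rRNA loci were summed. They were psbD-psbC, psaA-psaB, rbcL, the psbB operon to petD, psbE, atpB-atpE, atpA-atpF-atpH and the rRNA genes. No measure of their transcription was used. Relative to the number expected from the long-range totals of both bins, log2 of observed over expected was 0.079, 0.110, 0.010 and 0.116 in the crosslinked libraries (replicates 1 to 4), against 0.126, 0.121, -0.204 and 0.294 in the non-crosslinked libraries. The groups overlapped, and their means of 0.079 ± 0.049 and 0.084 ± 0.208 (SD, n = 4 each) differed by -0.0052 (exact permutation p = 0.857). With the expected number taken from distance in place of the totals, the difference was 0.29 (exact permutation p = 0.0286), so this comparison depends on whether the totals of the loci are taken out. Without non-crosslinked replicate 3 the difference from totals was -0.10 (exact permutation p = 0.0286).

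The loci are given as sums over the 4 libraries of a group, with no test. atpA-atpF-atpH, genes of the ATP synthase, had 187 contacts with psbA where 145 were expected in crosslinked libraries (ratio 1.29) and 109 where 115 were expected in non-crosslinked ones (ratio 0.948). psbD-psbC, whose products D2 and CP43 sit beside D1 in photosystem II, had ratios of 1.09 and 1.10. psaA-psaB had 1.08 and 1.11, and rbcL 1.09 and 1.10. The psbB operon had 0.882 and 1.09, psbE 0.874 and 1.02, atpB-atpE 1.00 and 0.961, and the rRNA genes 1.07 and 1.21. The locus with the highest crosslinked ratio was also the one closest to psbA on the map.

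The long-range profile of psbA over the 14 windows, as mean log2 observed over expected in crosslinked libraries, was most like those of 3 places of the large single copy region. The place with petN, psbM and trnD (28001 to 30000) had a Pearson r of 0.746, that with rps16 to trnS (6001 to 8000) 0.677, and that with trnK and matK (2001 to 4000) 0.665, each over 14 windows. The last 2 are near neighbours of psbA. All profiles come from the same libraries, so these values only describe likeness. psbA's own profile correlated between crosslinked replicates at 0.264 to 0.653 and between non-crosslinked replicates at -0.290 to 0.569.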

How the data were processed

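Hi-C contacts were counted in 4 crosslinked and 4 non-crosslinked libraries. The values are raw contact counts per pair of 1-kb bins, deposited by the authors without normalization, on the TAIR10 plastid chromosome per the file headers. The submitters' processing notes name Trim Galore 0.4.1, Juicer and TAIR10; the restriction enzyme, the filters on read pairs and the handling of reads with several positions are not given in the sources used here. Groups came from sample titles, and columns were matched by name. Gene names came from a RefSeq table of TAIR10.1 (129 plastid genes), whose coordinates are not printed because the build name differs.

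The tests on counts were run in edgeR 4.0.16, R 4.3.3 (quasi-likelihood, TMM, filterByExpr with a minimum count of 10, prior count 2, Benjamini-Hochberg over each whole table, threshold 0.05), with DESeq2 1.42.0 as an alternative. Tables held 1-kb pairs, 2-kb places (65, repeat copies summed, over 5 kb), 2-kb places by windows, bin totals and long-range bin totals. Standard errors are the log2 change over the square root of F. Per-library measures had exact two-sided permutation tests (Python 3.11.15, scipy 1.17.1); 8 were planned and 5 were added after the data were seen (both bins over the median bin, their ratio, the repeat-side share and the share of long-range contacts). Profiles used a pseudocount of 0.5. Wilson 95% intervals cover counting error only, as reads are not independent molecules. Procedures were tested on simulated data.

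Named pairs and 2-kb partners are up to 5 per direction with the largest change among those past the threshold whose groups do not overlap, with all windows past it and the listed loci; other partners are named only as values. The members, lists and tests were chosen with earlier results of these data known. Libraries differed by more than counting noise (chi-square over its degrees of freedom 1.48 to 20.6 within groups), and each counted as 1 replicate. Replicate numbers are shared between groups. Same-numbered libraries deviated together for replicate 1 more than for the others (correlations over pairs of 0.586, 0.063, -0.006 and 0.255 for replicates 1 to 4). They were not treated as pairs. In both groups replicates 3 and 4 had fewer long-range contacts than replicates 1 and 2.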

Additional observations from a re-analysis of the deposited data

Results flagged for a closer look

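In 68 groups of 4 libraries, 8 had a library whose gap to its nearest neighbour was large for the group's range by Dixon's 95% criterion, which chance meets in about 1 of 20 groups. Crosslinked replicate 4 had a psbA distance ratio of 4.06, where the others began at 2.08, and a repeat-side share of near contacts of 34.8%, below the others, which reached 51.1%. Crosslinked replicate 3 had a log2 ratio of 0.471 between the long-range totals of the second and the first psbA bin, where the lowest was 0.306. Crosslinked replicate 1 had 61.1 CPM for the contact of the second psbA bin with the trnK-matK bin at 3001 to 4000, where the lowest was 28.0.

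Among non-crosslinked libraries, replicate 4 sent 24.3% of long-range psbA contacts to the small single copy region, where the lowest was 17.5%. Replicate 2 had a log2 value of 0.241 for the first psbA bin over the median bin of the large single copy region, against a lowest value of -0.0199. Replicate 3 had a log2 value of 0.270 for the second bin on the same measure, and a long-range total of 8952 CPM for that bin, where the lowest was 6310. It rests on 44 contacts.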

How the results depend on the processing

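Counts of called psbA windows (8) and 2-kb partners (15) fell to 0 and 0 with totals balanced, a fit that removes what the totals carry, and the partners to 9 with DESeq2. With replicates 3 and 4 only, 2 of 13 tested windows and 1 of 1 tested partner were called, so the latter says nothing of the other partners. Called 1-kb pairs (3) were 7 of 309 with no filter, all higher (1.56% of all pairs), and 10 with replicates 1 and 2 only. For all contacts of the first bin, the log2 difference of 0.23 was 0.238 with replicates 3 and 4 only (edgeR adjusted p = 0.0700) and 0.146 without adjacent and mirror pairs (adjusted p = 0.190). For the second bin, 0.11 became 0.208 without TMM (adjusted p = 0.0387), 0.242 with replicates 1 and 2 only (0.0311) and 0.640 without adjacent and mirror pairs (0.000113). The second bin's long-range total was 0.437 with replicates 3 and 4 only (0.134), and the first bin's was 0.249 over the median bin (exact permutation p = 0.0286). The listed loci turned to 0.142 with the second bin alone (exact permutation p = 0.429) and 0.285 with expected values from distance (exact p = 0.0286). The near-side ratio turned to 2.469 for the first bin alone (exact permutation p = 0.0286), which has its adjacent partner on the repeat side. The ndhB-rrn16S window turned to -0.043 with totals balanced. The repeat share was 8.73 points with the first bin alone (exact permutation p = 0.0571). The near-side ratio of the second bin alone has no value, since a library has no contact on the repeat side. The cause of these changes was not tested.

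With the replicate number as a block (replicate block), the repeat share of 8.28 and the small single copy share of -9.01 points had exact p of 0.125, the smallest that 16 sign changes allow, so this says nothing of stability; 8 windows, 13 partners and 3 pairs were called. Only 1 of 4 libraries correlated best with its own number.

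Leaving out each library gave 7 to 9 windows, 6 to 18 partners (6 without non-crosslinked replicate 1, 9 without replicate 2) and 2 to 4 pairs, 1 of them lower without non-crosslinked replicate 2 and, among 3 called, with replicates 3 and 4 only. Differences ranged from 0.170 to 0.285 and 0.0779 to 0.192 for all contacts of the first and second bin, and from 0.0637 to 0.158 and 0.570 to 0.676 for their long-range totals. The listed loci ran from -0.101 to 0.0647, the distance ratio from 0.589 to 1.49, the long-range share from 7.84 to 16.4 and the same-bin share from -9.79 to -5.19 points. The repeat, large and small single copy shares ran from 7.09 to 8.81, from -1.33 to 2.58 and from -9.67 to -7.40 points, and the near-side ratio from -0.458 to -0.233. Of 249 alternatives for the 17 named pairs, partners and windows, 223 kept direction and call, 25 kept direction only and 1 reversed. Alternatives in which a named item could not be tested are not among the 249. They include replicates 3 and 4 only for the named 2-kb increases. The petG to rps18 stretch also could not be tested without replicate 1 or replicate 2 of either group. Depth limits the long-range values of non-crosslinked replicates 3 and 4, with 80 and 107 psbA contacts.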
